A study of Mus musculus with 4 samples.

Results

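The genes described here are those of major histocompatibility complex (MHC) class II presentation: the chains H2-Aa, H2-Ab1 and H2-Eb1, the peptide exchange chains H2-DMa and H2-DMb1, the invariant chain Cd74 and the transactivator Ciita. They were picked by symbol, and 7 of the 18804 genes in the deposited expression table are members. RNA-seq was made from liver group 1 innate lymphoid cells (ILC1s), resident lymphocytes related to natural killer (NK) cells, of adult mice aged 5 to 8 weeks at homeostasis. There were 2 libraries of the genotype Cd200r knockout (replicates 1 and 2) and 2 of WT mice (replicates 1 and 3), and no treatment is labelled for either group. CD200R is an inhibitory receptor of the immunoglobulin superfamily, and the comparison asks how the transcripts of these cells differ when its gene is targeted. Strain, sex, the structure of the allele, the sorting gate and whether a library came from 1 mouse or a pool are not given by the labels. The p-values therefore rest on 4 libraries, and part of the spread among these may be technical.

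MHC class II molecules present peptides from internalised proteins to CD4 T cells and are the hallmark of professional antigen-presenting cells such as dendritic cells, B cells and macrophages. An alpha and a beta chain assemble on the invariant chain CD74, whose remaining fragment is exchanged for antigen peptide by H2-DM, a process that H2-O restrains. Transcription of these genes depends on a shared promoter module bound by the RFX complex, CREB and NF-Y, to which CIITA is recruited as the master coactivator. In the liver, Kupffer cells, dendritic cells, B cells and sinusoidal endothelium are known to carry class II.

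Promoter windows are shown because the members that rose are known to share this module. The RefSeq promoter table (GRCm38.p6) matched 4 of the 7 members, H2-Aa, H2-Eb1, H2-DMa and H2-DMb1. The search, whose first element was widened after the promoters were seen, was for GNAAC, from the X box that RFX binds, followed after 24 to 32 bases by ATTGG, the reverse complement of the CCAAT box (Y box) that NF-Y binds, in the 250 bases before the start and on either strand. In each window below, written 5′ to 3′ on the strand of the gene, capitals mark these elements, and the first 3 windows belong to members and the other 2 to the H2-O chains.
H2-Aa, chr17:34287852-34287919, minus strand: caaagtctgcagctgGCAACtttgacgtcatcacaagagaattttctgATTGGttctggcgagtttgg
H2-Eb1, chr17:34305761-34305827, plus strand: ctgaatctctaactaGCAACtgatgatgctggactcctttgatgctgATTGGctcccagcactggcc
H2-DMb1, chr17:34153082-34153149, plus strand: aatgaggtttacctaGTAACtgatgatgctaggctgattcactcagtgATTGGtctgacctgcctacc
H2-Oa, chr17:34092288-34092355, plus strand: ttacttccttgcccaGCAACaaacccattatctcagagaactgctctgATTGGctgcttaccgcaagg
H2-Ob, chr17:34238803-34238867, plus strand: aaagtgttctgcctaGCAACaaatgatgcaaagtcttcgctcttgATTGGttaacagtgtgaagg

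The elements lay 28 bases apart in H2-Aa, H2-DMb1 and H2-Oa, 27 in H2-Eb1 and 25 in H2-Ob. The arrangement was found in 3 of the 4 members with a promoter and in 1.48% of the 27025 genes in the promoter table. Counted by promoter, the share was 1.28% of 32851. The motif with GCAAC in place of GNAAC occurred in 0.389% of genes and 0.35% of promoters. It was found in 2 of the 4 members, since H2-DMb1 has GTAAC at that place. Of 4 other class II genes with a promoter, H2-Oa, H2-Ob and H2-Eb2 held both forms and H2-DMb2 held neither. Neither form was found at either listed start of H2-DMa. A match describes letters in this window, not a bound site.

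The library labels were checked first. Cd200r1 measured 110.7 and 103.7 FPKM (fragments counted per kilobase and scaled to library depth) in knockout and 161.5 and 173.3 in WT, so the transcript was lower but present in libraries labelled knockout (adjusted p = 0.00451). The ILC1 markers Ncr1 (1486 to 1748 FPKM), Klrb1c (867.4 to 996.5), Cxcr6 (948.4 to 1067) and Tbx21 (253.5 to 263.4) were abundant in all 4 libraries; apart from Ncr1, these genes and Cd200r1 are outside the rule for named genes and serve to check the labels. Summed FPKM ranged from 511415 to 523717, and depth inferred from the steps between low values from about 39000000 to 41200000 counted reads, so 1 FPKM stands for about 39.0 to 41.2 reads per kilobase.

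All adjusted p-values are from limma on log2(FPKM + 1) over the 9476 genes that averaged 1 FPKM or more, with 0.05 as the threshold. A log2 fold change (log2FC) is the knockout mean minus the WT mean on that scale, where differences of low genes are understated. SE is its standard error as moderated by limma. The variance of each gene is drawn toward that of tested genes at a similar level. SE and p-value therefore do not measure the gene's own spread between replicates alone. Class II transcripts were higher in the knockout libraries. Of the 7 members, 6 passed the filter on low values, each with every library above it. Of these 6, 5 rose, 0 fell and H2-DMa did not pass, where 2.4% of all tested genes rose, 0.939% fell and 3.33% did either. Ciita was under the filter and has no test. All 7 members were higher in both knockout libraries than in both WT libraries, a separation found in 24.3% of tested genes. The median log2FC of the 6 tested members was 1.14, against 0.0033 over all tested genes.

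**Figure D1:**
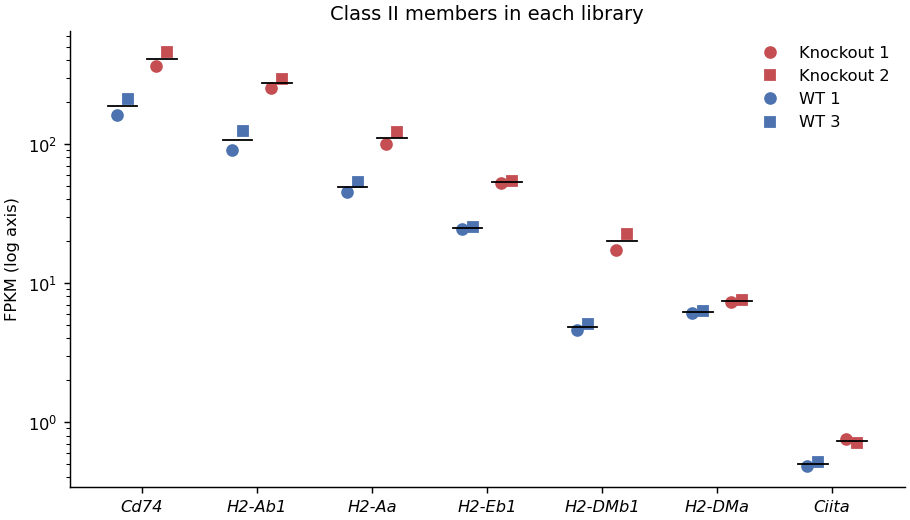
FPKM of the 7 members in each library on a log axis, knockout in red and WT in blue, with a black line at each group mean of 2 libraries. The groups do not overlap for any member, and the relative gap is widest for H2-DMb1 (19.9 against 4.80 FPKM) and narrow for H2-DMa (7.42 against 6.17).

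H2-Ab1 encodes the beta chain of I-A, the main mouse class II molecule (Entrez 14961, chr17:34263227-34269418). It measured 251.9 and 293.4 FPKM in knockout replicates 1 and 2 and 90.4 and 124.1 in WT replicates 1 and 3. The lower knockout library was 2.03 times the higher WT library. By group means it was 2.54-fold higher, at 272.7 ± 29.4 against 107.3 ± 23.9 FPKM (SD, n = 2 each; log2FC 1.35, SE 0.14, adjusted p = 5.66e-04).

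H2-Aa, the alpha chain that pairs with it (Entrez 14960, chr17:34282744-34287823), measured 99.7 and 121.3 FPKM in knockout and 44.97 and 53.0 in WT. Both knockout libraries again stood above both WT libraries, and every knockout to WT pair differed by between 1.88 and 2.70 times. The group means gave a 2.26-fold difference (log2FC 1.16, SE 0.12, adjusted p = 8.09e-04). The ratio of H2-Ab1 to H2-Aa within a library was 2.53 and 2.42 in knockout and 2.01 and 2.34 in WT, 1.14 times as high in knockout on average, with no overlap.

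H2-Eb1 encodes the beta chain of I-E, the other class II molecule (Entrez 14969, chr17:34305867-34316674). It measured 52.2 and 54.3 FPKM in knockout and 24.3 and 25.1 in WT. Replicates were close, 1.04 times apart in knockout and 1.03 in WT, and the groups were 2.15-fold apart (log2FC 1.08, SE 0.11, adjusted p = 6.29e-04). An alpha chain of I-E was not analysed here.

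Cd74, the invariant chain that chaperones class II dimers (Entrez 16149, chr18:60803849-60812652), was the member with the highest level. It measured 363.3 and 459.0 FPKM in knockout and 162.8 and 211.4 in WT, and ranked 181 and 140 among all genes in knockout and 474 and 323 in WT. The groups did not overlap, with a 2.20-fold difference of means (log2FC 1.13, SE 0.14, adjusted p = 0.00172). Cd74 stood at 3.64 and 3.79 times H2-Aa in knockout and 3.62 and 3.99 times in WT. This proportion overlapped between the genotypes, although both levels were higher in knockout. Relative to H2-Ab1, Cd74 stood at 1.44 and 1.56 times in knockout and 1.80 and 1.70 times in WT, lower in knockout with no overlap.

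The alpha and beta chains of H2-DM, which catalyses peptide loading, are given side by side, and the difference between their changes was not itself tested. H2-DMb1, a beta chain (Entrez 14999, chr17:34153191-34160229), measured 17.3 and 22.5 FPKM in knockout and 4.57 and 5.04 in WT. This was the largest fold change among the members, 4.14-fold by group means (log2FC 1.84, SE 0.18, adjusted p = 4.34e-04). H2-DMa, the alpha chain (Entrez 14998, chr17:34119693-34139101), measured 7.29 and 7.55 FPKM in knockout and 6.04 and 6.31 in WT. Its log2FC was 0.23 (SE 0.18, adjusted p = 0.596), although the groups did not overlap. Within a library H2-DMa stood at 0.421 and 0.336 times H2-DMb1 in knockout and at 1.32 and 1.25 times in WT, so the order of these chains was opposite in the genotypes. RefSeq places 3122 bases of H2-DMa within Brd2, and the library kit does not mark strand, so reads of that overlap cannot be told apart.

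H2-DMb1 has a neighbouring copy, H2-DMb2, whose value must be read with it. The longest coding transcripts of the copies in GENCODE release M21 were 95.5% identical over 1058 aligned bases, with a longest identical stretch of 221 bases, and reads from such stretches can be split between them or dropped. H2-DMb2 measured 8.14 and 8.22 FPKM in knockout and 10.2 and 15.1 in WT, lower in both knockout libraries, and did not pass (log2FC −0.55, SE 0.20, adjusted p = 0.197). The ratio of H2-DMb1 to H2-DMb2 was 2.13 and 2.74 in knockout and 0.448 and 0.333 in WT. Their sum, to which the division of shared reads matters less, was 25.5 and 30.7 FPKM in knockout and 14.8 and 20.2 in WT, 1.61-fold higher in knockout with no overlap.

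Ciita, the coactivator on which class II transcription depends (Entrez 12265, chr16:10480014-10531064), was the lowest member. It measured 0.753 and 0.710 FPKM in knockout and 0.481 and 0.512 in WT, 1.47-fold higher by group means. The groups did not overlap, but the level was under the filter. When all genes above 0 were tested, its log2FC of 0.21 (SE 0.10) had an adjusted p of 0.583. H2-Ab1 stood at 334.5 and 413.4 times the FPKM of Ciita in knockout and 188.0 and 242.5 times in WT. Ciita overlaps Dexi by 858 bases in RefSeq, and unstranded reads of that overlap cannot be told apart.

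Levels per length fell in the order Cd74, H2-Ab1, H2-Aa and H2-Eb1 in each of the 4 libraries, with no overlap between neighbours within a genotype. After these came H2-DMb1 and H2-DMa in knockout, H2-DMa and H2-DMb1 in WT, and Ciita last in both. Together the members made up 0.155% and 0.183% of summed FPKM in knockout and 0.0650% and 0.0825% in WT. Knockout replicate 2 was higher than replicate 1 in 6 of the 7 members, Ciita being the exception, and WT replicate 3 was higher than WT replicate 1 in 7. The members' summed FPKM was 1.21 times as high in knockout replicate 2 as in replicate 1, and 1.28 times as high in WT replicate 3 as in WT replicate 1.

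Of the 7 members, 5 lie in the class II region of chromosome 17, which spans 249.0 kb from H2-Oa to H2-Eb2 and holds 16 RefSeq genes, all in the table. Of the 13 tested there, 4 rose (H2-DMb1, H2-Ab1, H2-Aa and H2-Eb1) and 0 fell. Between H2-DMb1 and H2-Ab1 lie the class I peptide transporter genes Tap1 and Tap2 and the immunoproteasome genes Psmb8 and Psmb9, named here for their position. Their log2FC values ran from −0.08 (Tap1) to 0.10 (Psmb8), and none passed, although these genes were abundant, from 86.8 FPKM for the lowest Tap1 value to 1184 for the highest Psmb8 value. H2-DMb1 was therefore separated from the other genes that rose by genes that did not pass, while H2-Ab1, H2-Aa and H2-Eb1 lay next to each other.

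**Figure D2:**
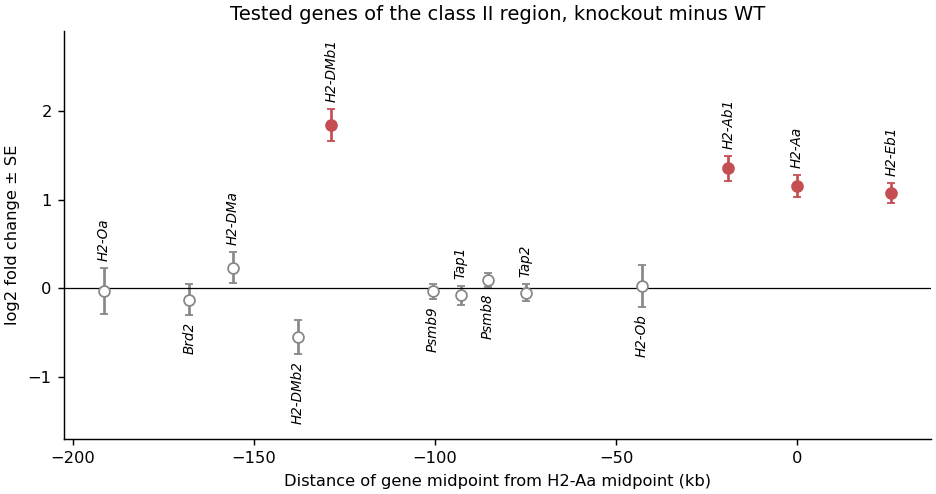
Log2FC (knockout minus WT, ± SE) of the 13 tested genes of the class II region against the distance of each gene's midpoint from that of H2-Aa in kb. Filled red points passed the test, namely H2-DMb1 at 1.84, H2-Ab1 at 1.35, H2-Aa at 1.16 and H2-Eb1 at 1.08, while open grey points did not.

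The H2-O chains, which restrain H2-DM chiefly in B cells, share the promoter arrangement shown above but had no difference past the test. H2-Oa measured 1.45 and 2.92 FPKM in knockout and 2.14 and 2.18 in WT (log2FC −0.03, SE 0.26). H2-Ob, named for its pairing with H2-Oa after its values were seen, measured 2.52 and 3.83 in knockout and 2.62 and 3.56 in WT (log2FC 0.02, SE 0.24). The groups overlapped for both. Of the 3 other class II chains tested, 0 rose and 0 fell, with a median log2FC of −0.03, and H2-Eb2 was under the filter at 0.125 FPKM on average.

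Among enzymes that prepare antigen and degrade the invariant chain, 7 of 9 listed genes in the table were tested, 3 rose and 0 fell, with a median log2FC of 0.44. Ctss, encoding cathepsin S, which makes the last cuts in the invariant chain, measured 97.2 and 157.2 FPKM in knockout and 30.1 and 26.0 in WT. It was 4.53-fold higher (log2FC 2.10, SE 0.19, adjusted p = 2.25e-04), where its substrate Cd74 had 1.13. Lgmn, encoding the asparaginyl endopeptidase legumain, measured 14.4 and 29.1 FPKM in knockout and 2.32 and 2.44 in WT, 9.15-fold higher (log2FC 2.67, SE 0.27). Its higher value was in knockout replicate 2. Ctsb, encoding cathepsin B, measured 189.0 and 225.8 FPKM in knockout and 149.9 and 154.3 in WT (log2FC 0.44, SE 0.10, adjusted p = 0.0435). Its call was lost when knockout replicate 2 was left out (log2FC 0.31, adjusted p = 0.149), and likewise for WT replicate 1 (0.42, adjusted p = 0.182) and WT replicate 3 (0.46, adjusted p = 0.0965). It was also lost with quantile normalization (0.36, adjusted p = 0.0953), upper quartile scaling (0.41, adjusted p = 0.0702), rescaling to a total that omits globin and mitochondrial transcripts (0.41, adjusted p = 0.0505) and no variance trend (adjusted p = 0.28).

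None of the factors that bind the shared promoter module passed. The table held 7, of which 6 were tested, with a median log2FC of 0.02. Nfyb, an NF-Y subunit, measured 25.7 and 25.7 FPKM in knockout and 21.1 and 20.0 in WT (log2FC 0.31, SE 0.13, adjusted p = 0.268). Rfxank, a subunit of the RFX complex, measured 6.67 and 6.40 in knockout and 8.12 and 9.47 in WT (−0.38, SE 0.18, adjusted p = 0.348). These factors were thus measured in every library, and the groups lay apart in opposite directions for these subunits without passing.

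Of the 11 tested genes that induce or repress Ciita, 1 rose and 0 fell, with a median log2FC of 0.21. The gene that rose was Spi1, encoding PU.1, a transcription factor of myeloid cells and B cells, at 11.7 and 8.27 FPKM in knockout and 3.61 and 2.29 in WT (log2FC 1.48, SE 0.24, adjusted p = 0.00693). Of the interferon-gamma axis, the classic inducer of Ciita, Ifngr1, the ligand-binding receptor chain, had a log2FC of 0.36 (SE 0.10, adjusted p = 0.101) and Irf1, a transcription factor, of −0.34 (SE 0.09, adjusted p = 0.0728). Neither passed, and both were named after their values were seen.

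Of the class II partners and costimulatory genes, 3 of 5 were tested and none passed, with a median log2FC of 0.27. Cd86, a costimulatory ligand of antigen-presenting cells, measured 8.91 and 11.0 FPKM in knockout and 5.59 and 5.71 in WT (log2FC 0.71, SE 0.18, adjusted p = 0.0689). With knockout replicate 1 left out, Cd86 passed (0.85, adjusted p = 0.0286). Lag3, encoding an inhibitory receptor that binds class II, measured 68.8 and 47.1 FPKM in knockout and 74.2 and 77.5 in WT (−0.41, SE 0.15, adjusted p = 0.222). With the same library left out, Lag3 passed as lower (−0.68, adjusted p = 0.00401).

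Other cell types of the liver carry class II, and their markers were measured in the same libraries. In bulk RNA, fewer cells of a type and less RNA per cell cannot be told apart. Several macrophage genes were higher in knockout, while the markers of Kupffer cells that were tested did not pass. The table held 15 markers of macrophages and Kupffer cells, of which 11 were tested, 7 rose (Adgre1, Csf1r, C1qa, C1qb, C1qc, Cd68 and Lyz2) and 0 fell, with a median log2FC of 1.499. Their summed level was 642.1 and 957.6 FPKM in knockout and 246.2 and 225.6 in WT, and without the abundant Lyz2 (lysozyme) it was 115.4 and 186.5 against 32.9 and 32.6. C1qb, a complement C1q chain made by macrophages, measured 38.2 and 52.6 FPKM in knockout and 5.82 and 6.44 in WT, and H2-Ab1 stood at 6.59 and 5.57 times C1qb in knockout and 15.5 and 19.3 times in WT. C1qc measured 23.1 and 40.5 FPKM against 3.56 and 3.77, Cd68, a lysosomal protein of phagocytes, 23.4 and 35.2 against 10.8 and 5.93, and Lyz2 526.7 and 771.1 against 213.3 and 193.0. Clec4f, which defines Kupffer cells, measured 3.72 and 12.4 in knockout and 2.04 and 4.37 in WT, with overlap between the groups (adjusted p = 0.294). Clec4f passed once knockout replicate 1 was left out (log2FC 1.73, adjusted p = 0.00371). Of other genes typical of Kupffer cells, named after their values were seen, Vsig4 measured 2.59 and 8.48 FPKM in knockout and 2.91 and 1.66 in WT, and Cd5l 2.02 and 4.20 against 2.38 and 3.92, both with overlap and neither past the test. Marco, under the filter, was lower in both knockout libraries, at 0.328 and 0.158 against 0.554 and 0.360. Other genes of the list, also named after their values were seen, were higher in both knockout libraries. Timd4 measured 0.234 and 1.93 FPKM against 0 and 0.101, and Cd163 0.135 and 0.242 against 0.0282 and 0, both under the filter. Folr2 measured 0.804 and 2.57 against 0.669 and 0.0579 and did not pass (adjusted p = 0.211). The part of these cells in the class II difference was not tested.

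B cell markers did not rise in knockout as the members did. The table held 11, of which 6 were tested, 0 rose and 0 fell, with a median log2FC of −0.50, and their summed level was 53.0 and 63.5 FPKM in knockout and 65.4 and 84.3 in WT. Within a genotype, that sum was 1.20 times as high in knockout replicate 2 as in replicate 1. It was 1.29 times as high in WT replicate 3 as in WT replicate 1. For the members these ratios were 1.21 and 1.28. Cd79a, a chain of the B cell receptor complex, measured 16.4 and 23.1 FPKM in knockout and 23.0 and 34.2 in WT, and Cd79b 25.1 and 28.4 against 23.3 and 31.2. H2-Ab1 was 15.3 and 12.7 times Cd79a in knockout and 3.93 and 3.63 times in WT. Fcmr, the IgM Fc receptor, measured 5.24 and 4.17 FPKM in knockout and 6.39 and 7.58 in WT. Cd79a fell past the threshold without WT replicate 1 (log2FC −0.78, adjusted p = 0.0412). The B cell transcription factors Pax5 and Ebf1 were near 0, at no more than 0.0124 and 0.0341 FPKM in any library.

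Markers of dendritic cells showed no common direction. The table held 14, of which 7 were tested, 0 rose and 1 fell, with a median log2FC of 0.05, and the summed level was 299.7 and 300.5 FPKM in knockout and 291.7 and 295.9 in WT. That sum is mostly Cst3 (cystatin C, 225.1 and 225.4 against 179.8 and 199.6) and Itgax (CD11c, also made by NK cells), which fell from 88.7 and 77.2 FPKM in WT to 53.3 and 50.4 in knockout, a call lost without WT replicate 1 (log2FC −0.57, adjusted p = 0.0541) and without the variance trend (adjusted p = 0.113). Without these it was 21.2 and 24.7 against 23.2 and 19.1. Naaa measured 10.2 and 8.56 FPKM in knockout and 9.89 and 8.79 in WT, and Xcr1, a chemokine receptor of type 1 dendritic cells, 4.54 and 4.71 against 4.62 and 4.27. The defining genes Flt3 and Zbtb46 did not exceed 0.0906 and 0.512 FPKM in any library. The part of these cells in the class II difference was not tested.

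Sinusoidal endothelial markers were low. The table held 9, of which 2 were tested, with a median log2FC of 0.87, and Stab2, a scavenger receptor that defines these cells, did not exceed 0.215 FPKM. The gene that rose was Fcgr2b, an inhibitory Fc receptor also made by macrophages, at 4.07 and 7.15 FPKM in knockout and 0.375 and 0.657 in WT (log2FC 2.09, SE 0.27). Pecam1, which is not confined to endothelium, measured 17.5 and 13.3 FPKM in knockout and 20.7 and 18.6 in WT and made up most of the list's sum of 24.5 and 23.3 against 21.8 and 20.2. Clec4g measured 2.28 and 0.882 FPKM in knockout and 0.412 and 0.229 in WT, and Gpr182 0.272 and 1.61 against 0.0900 and 0.636, both under the filter.

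The lymphocyte lists were examined in the same way. Of 9 markers of conventional NK cells, which recirculate, 8 rose, with a median log2FC of 1.88. Their summed level was 283.3 and 592.3 FPKM in knockout and 101.2 and 98.4 in WT, 2.09 times as high in knockout replicate 2 as in replicate 1, where the class II members differed by 1.21 times and the macrophage markers by 1.49 times. Klrg1, a receptor of mature NK cells, measured 31.4 and 73.2 FPKM in knockout and 18.0 and 19.5 in WT. Ly6c2, the largest single part of the list's sum in every library, measured 141.9 and 206.1 against 48.8 and 41.7. The log2FC of Klrg1, 1.31, was 0.71 without knockout replicate 2 and 1.91 without knockout replicate 1. The call of Klrg1 (adjusted p = 0.0341) was lost with a robust prior (0.111), quantile normalization (0.0675) and no variance trend (0.215). Of 12 tested ILC1 markers 1 rose (Tmem176b) and 1 fell, which was the targeted gene Cd200r1, with a median of −0.09 and sums of 6654 and 6573 FPKM in knockout against 7482 and 7353 in WT. H2-Ab1 relative to Ncr1, the ILC1 and NK cell receptor NKp46, was 0.170 and 0.195 in knockout and 0.0547 and 0.0710 in WT.

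**Figure D3:**
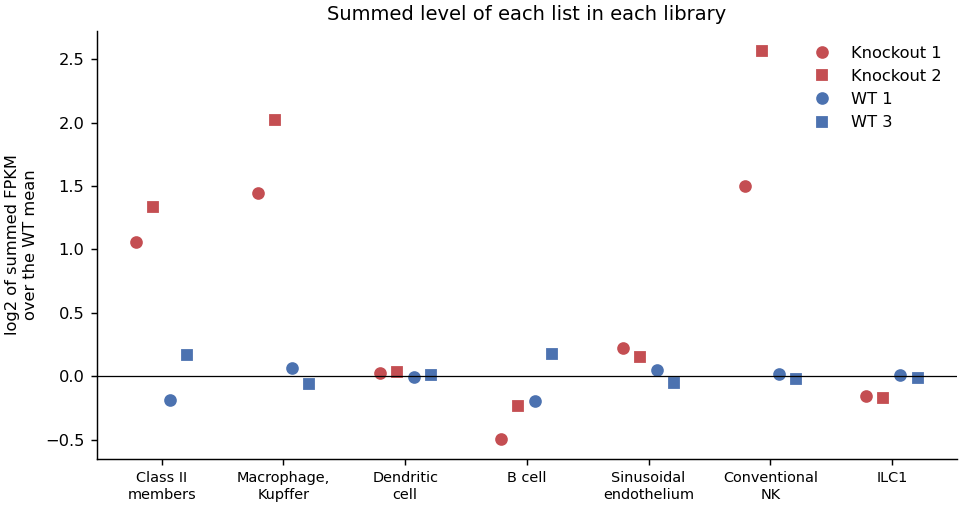
Log2 of the summed FPKM of the class II members and of 6 marker lists in each library over the WT mean of that list, knockout in red and WT in blue. Knockout libraries stand furthest above WT for class II, macrophage and conventional NK lists, with knockout replicate 2 highest, while dendritic cell sums lie close together (291.7 to 300.5 FPKM) and ILC1 and B cell sums are lower in knockout.

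The genes most like the class II members across the 4 libraries were found by the distance between log2(FPKM + 1) profiles centred on their own mean, against the mean profile of the 6 members with at least 5 FPKM, among 6095 other genes. The nearest was Gpr183, a receptor for oxysterols that guides lymphocytes and dendritic cells, at a distance of 0.107. It measured 12.9 and 14.8 FPKM in knockout and 5.80 and 6.22 in WT (log2FC 1.08, SE 0.17). Next came Ly86 (MD-1, a partner of the receptor RP105 on B cells and myeloid cells, distance 0.130), at 6.51 and 8.65 FPKM against 2.78 and 3.05, and Hilpda (a lipid droplet protein, 0.138), at 56.8 and 64.5 against 27.3 and 32.6. Gsto1 (a glutathione transferase, 0.181), Ugt2b5 (a glucuronosyltransferase, 0.186), Cfb (complement factor B, 0.188) and the mitochondrially encoded ATP8 (0.199) and CYTB (0.210) completed the 8 nearest. All 8 rose, with log2FC values from 0.94 to 1.21, as the choice by profile implies. The call of Ly86 rested on knockout replicate 2 (log2FC 0.94 and adjusted p = 0.0591 when it was left out), and 6 of the 8, all but Gpr183 and Ugt2b5, did not pass without the variance trend (adjusted p from 0.0554 to 0.0847). The distance rests on 4 libraries and 1 contrast.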

How the data were processed

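The deposited table holds FPKM per gene for 4 libraries, computed by the authors, with no scaling between libraries stated. Per the labels' protocols, RNA was extracted with TRIzol, a kit for full-length cDNA of single cells amplified the mRNA, and a transposase kit, which does not mark strand, made the libraries. Per the submitters' processing notes, fastp, HISAT2, HTSeq, DESeq2 and R 3.2.0 were used with build mm10; their roles are not given there. The table holds no counts, so no count test was run. Depth was inferred from ratios and steps of low values in 485 single-exon genes of GENCODE M21; at the best fit 9.71% of 628 low values lay within 0.005 of a whole read, against a median of 1.11% over the depths tried. Here, log2(FPKM + 1) of 9476 genes averaging 1 FPKM or more was fitted with limma 3.58.1 (R 4.3.3; mean-variance trend, two-sided, no covariate, Benjamini-Hochberg adjustment) and tested on simulated data. An exact permutation test of 2 against 2 cannot go below 0.333. Coordinates and promoters are RefSeq's for GRCm38.p6, the assembly of mm10, in which 97.3% of gene identifiers matched.

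The members, gene lists and rules were chosen with earlier results of these data known. Named genes were the members, pathway genes past the test (or the 2 with the smallest p in a list with none), the 4 most abundant and the defining markers of cell types that carry class II, the 2 most abundant of other marker lists, and the 8 nearest profiles. Others are said to be outside the rule or named after their values were seen, or are named for their position, as the targeted gene or as the genes behind a count. Single values of some listed genes are not reported here, although counts, medians and sums over their lists include them. Alternatives changed pseudocount, filter, variance model, scaling and libraries.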

Additional observations from a re-analysis of the deposited data

How the results depend on the processing

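Over 14 alternatives, the log2 fold changes of all 6 tested members stayed positive. H2-Eb1 and H2-DMb1 passed in 13, H2-Aa, H2-Ab1 and Cd74 in 12, and H2-DMa in 0 (adjusted p from 0.492 to 0.969). Leaving out each library in turn gave 1.02 to 1.30 for H2-Aa, 1.12 to 1.58 for H2-Ab1, 1.05 to 1.10 for H2-Eb1, 1.66 to 2.02 for H2-DMb1 and 0.95 to 1.32 for Cd74, all past the threshold. With no filter (18155 genes) limma called 0 genes higher and 0 lower, although 1898 had an unadjusted p under 0.05, and H2-Aa (1.16, adjusted p = 0.302), H2-Ab1 (1.35, 0.302), H2-Eb1 (1.08, 0.302), H2-DMb1 (1.84, 0.302) and Cd74 (1.13, 0.311) lost their calls. Without the mean-variance trend 57 genes were higher and 13 lower, and H2-Aa (1.16, adjusted p = 0.0523), H2-Ab1 (1.35, 0.0523) and Cd74 (1.13, 0.0716) did not pass; the cause was not tested. No filter thus ended every call named in the text, and no trend also ended those of Ctsb, Spi1, Cd68, Klrg1, Itgax, Ngp, Hba-a1, Ly86, Hilpda, Gsto1, Cfb, ATP8 and CYTB (adjusted p from 0.0523 for Ngp to 0.28 for Ctsb). The calls of Cd200r1, Tmem176b, Adgre1, Csf1r, C1qa, Camp and Ahsg were not followed under the other alternatives, so whether they hold there is not known. The counts of 227 higher and 89 lower became 151 and 79 with the stricter filter of 5 FPKM, where fewer genes were tested. Leaving out a library gave 170 to 351 higher and 56 to 223 lower, the highest of each without knockout replicate 1 and 56 lower without WT replicate 1. Ciita had 0.48 with a pseudocount of 0.1, 0.060 with 5 and 0.30 as TPM, against 0.21. No scaling moved the median of all genes by over 0.1. The promoter search with a gap of 15 to 45 bases and GCAAC found 2 of 4 members, 1.31% of genes and 1.15% of promoters. GNAAC was chosen after the promoters were seen. No paired analysis was possible because the groups share only replicate number 1. Counts of 2 libraries a group limit every interval here.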

Other observations

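The remaining marker lists gave these values. Of 5 tested monocyte markers none passed, with sums of 80.9 and 92.4 FPKM in knockout and 61.1 and 66.6 in WT. Ccr2 measured 57.0 and 61.5 against 46.6 and 50.7, and Plac8 6.996 and 7.09 against 3.85 and 4.74. Of 4 tested neutrophil markers 2 rose, with sums of 26.3 and 48.1 FPKM in knockout and 18.2 and 7.52 in WT. These were the granule protein genes Ngp (3.77 and 10.1 against 0.109 and 0.199) and Camp, the latter named after its values were seen, while S100a8 (16.8 and 29.3 against 15.5 and 6.55) did not pass (adjusted p = 0.136). Of 3 tested plasma cell markers none passed, with Xbp1 at 116.3 and 118.3 FPKM in knockout and 137.1 and 143.1 in WT and Jchain, the joining chain of antibodies, at 24.6 and 8.59 against 15.9 and 5.39. T cell markers gave 0 calls among 8 tested, with Cd3g at 1983 and 1950 FPKM in knockout and 2249 and 2238 in WT and Cd3d at 102.0 and 158.6 against 84.8 and 76.9. Of the ILC2 and ILC3 markers 1 was tested, Gata3 (35.3 and 28.5 against 45.1 and 34.4). Erythroid markers fell in 7 of 7 tested, led by Hba-a1 (5364 and 7315 against 11885 and 13089) and Hbb-bs (3010 and 3612 against 7057 and 7030). Of 8 hepatocyte markers 1 rose and 0 fell. The gene that rose was Ahsg, at 29.2 and 36.6 FPKM in knockout and 17.8 and 22.4 in WT (adjusted p = 0.0415). Trf measured 192.5 and 191.9 FPKM in knockout and 170.3 and 210.7 in WT. Apoa1, at 83.5 and 87.7 against 45.7 and 66.4, did not pass (adjusted p = 0.0545).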
